A study of Mus musculus with 12 samples.

Results

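The genes described here make leukotrienes and prostaglandins, the lipid messengers that cells derive from arachidonic acid. They were chosen by name, as 10 genes of the pathway, and 8 of the 10 are among the 11494 genes of the table: Pla2g4a, Alox5, Alox5ap, Lta4h, Ptgs1, Ptgs2, Ptges and Ptges3. Alox15, a lipoxygenase that oxygenates arachidonic acid at another carbon, and Hpgd, which inactivates prostaglandins, have no expression values here and their levels were not analysed. RNA was read from blood neutrophils of mice in 2 groups of 6 libraries, a control bone marrow transplant group (Control) and a group whose marrow carries the label LOY, for loss of the Y chromosome. All 12 libraries have the treatment label Control, and each came from 10000 sorted cells that were positive for Ly6G and RFP and negative for CD115. The labels do not give the animals' age or strain, what RFP marks, how the chromosome was lost, or whether each library is a separate mouse, so p-values measure the spread between these libraries only.

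Cytosolic phospholipase A2 frees arachidonic acid from membranes. In the leukotriene branch, 5-lipoxygenase and its membrane partner FLAP turn it into leukotriene A4, which leukotriene A4 hydrolase converts to leukotriene B4, a strong attractant of neutrophils. In the prostaglandin branch, the cyclooxygenases make prostaglandin H2, which terminal synthases turn into prostaglandin E2, thromboxane and other prostanoids. Neutrophils are best known for the leukotriene B4 branch.

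The deposited values are read counts divided by a size factor per library, called normalized reads below. Each library held between 13743581 and 19616066 recovered reads. The share of listed genes at 0 was 20.5%, 21.7% and 17.3% for Control 1, 2 and 12, against 6.59% to 11.6% in the other 9 libraries, so log2 fold changes that move by over 1.5 times when these 3 are left out are given with and without them. The LOY 4 library kept 39.8% of the mean Control share of Y-linked reads and LOY 5 kept 3.10%, while the other 4 LOY libraries kept at most 0.573%. Of 10 neutrophil markers 9 were listed, and their sum took 83280 to 133888 of every 1000000 normalized reads in Control and 85928 to 116276 in LOY libraries, led by S100a8 and S100a9. The listed eosinophil markers (2 of 8; Siglecf, Epx and Prg2 have no row here) summed to 0.061 to 7.32 per 1000000 in Control and 1.19 to 9.76 in LOY libraries. The listed mast cell and basophil markers (5 of 7) summed to 0 to 28.9 and 1.31 to 14. Lymphocyte markers (7 of 11 listed) summed to 6.04 to 87.0 in Control and 12.1 to 81.9 in LOY, and erythroid markers (7 of 7) to 4283 to 8889 and 5906 to 38011, the highest in LOY 15. Monocyte and macrophage markers (5 of 10) summed to 626 to 1187 and 746 to 1194. Limma and edgeR tested 3 of the 5 and 0 passed. The limma estimates of these 3 were above 0 for 1 and below 0 for 2, with a median of −0.23 (log2). The other 2, Irf8 and F13a1, are named after their values were seen. They fell below the filter and passed with DESeq2, which ran without it and passed 0.493% of all genes. Both were at 0 in all 6 Control libraries, and Irf8 had reads in 5 LOY libraries and F13a1 in 2.

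Promoter sequence is shown for 3 members whose levels behave differently in these libraries: Alox5, which is abundant and even, Ptgs1, and Ptgs2, which varied more than most genes of its level. Each run holds the 250 bases before the annotated start, 5′ to 3′ on the gene's strand, from RefSeq (GRCm38.p6). Capitals mark GGGCGG (GC box) and GAGGAA (a core bound by ETS factors such as PU.1). The windows lie at chr6:116461179-116461428 (minus strand) for Alox5, chr2:36230176-36230425 (plus strand) for Ptgs1 and chr1:150099781-150100030 (plus strand) for Ptgs2.
Alox5: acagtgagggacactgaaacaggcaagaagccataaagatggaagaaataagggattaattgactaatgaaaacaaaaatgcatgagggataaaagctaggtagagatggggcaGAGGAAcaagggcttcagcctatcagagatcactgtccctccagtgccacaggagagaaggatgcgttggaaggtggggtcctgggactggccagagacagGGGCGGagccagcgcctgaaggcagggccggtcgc
Ptgs1: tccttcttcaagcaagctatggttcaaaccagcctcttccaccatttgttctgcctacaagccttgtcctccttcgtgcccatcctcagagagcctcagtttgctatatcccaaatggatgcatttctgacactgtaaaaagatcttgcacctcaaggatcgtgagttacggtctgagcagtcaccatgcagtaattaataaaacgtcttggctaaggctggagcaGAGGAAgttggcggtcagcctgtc
Ptgs2: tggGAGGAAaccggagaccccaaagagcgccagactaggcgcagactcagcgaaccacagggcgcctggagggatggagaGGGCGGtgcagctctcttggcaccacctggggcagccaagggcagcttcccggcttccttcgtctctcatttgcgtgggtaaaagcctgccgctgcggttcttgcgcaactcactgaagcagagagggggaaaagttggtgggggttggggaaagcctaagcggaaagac

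Both strands were searched for 7 motifs in windows from 250 bases before to 50 bases after each of 32851 annotated starts. The ETS core, with the letters GAGGAA, was found in all 3 of these promoters, in 6 of the 8 named genes that have a promoter in the table (Hpgd among them), and in 28.28% of all windows. The GC box, GGGCGG as printed above, was found for Alox5 and Ptgs2, not for Ptgs1, and in 35.66% of all windows. The Ptgs2 window also held an E-box (its letters are CACGTG, in 7.15% of windows) at base 17 after the start. That match overlaps a short cyclic AMP response motif on the other strand, spelled TGACG, which begins at base 14 and is found in 20.81% of windows. The full response element, written as TGACGTCA, was in 1.79% of windows, a TATA box with the letters TATAAA in 13.62%, and the motif known as CCAAT in 37.41%, and none of these 3 was in the windows of Alox5, Ptgs1 or Ptgs2. These are matches of letters and were not tested as binding sites.

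The genes of 5-lipoxygenase and its partner FLAP stood far above the other members in both groups. To compare genes, reads were divided by the length of all annotated exons of a gene, whichever transcripts the cells use. The order of genes with similar levels can therefore depend on that length. Per 1000 exon bases, Alox5ap (FLAP) had the highest level of the 8 genes, with a mean of 17410 ± 3015 normalized reads for Control and 16903 ± 2600 for LOY (SD, n = 6 each). Alox5 (5-lipoxygenase) followed at 2905 ± 464 and 3236 ± 282. On this scale Alox5ap ranked 52 and Alox5 ranked 295 among 11472 genes with a known exon length. Ptges3 came next at 463 ± 140 and 383 ± 148, then Ptgs2 at 162 ± 85.8 and 219 ± 110, Lta4h at 139 ± 53.5 and 150 ± 44.3, Ptgs1 at 118 ± 73.9 and 75.5 ± 21.2, and Pla2g4a at 35.8 ± 23.3 and 45.3 ± 18.6. Ptges was last, at 6.20 ± 12.1 and 5.60 ± 13.1. Not divided by length, Ptges3, Lta4h and Ptgs2 averaged 937, 881 and 874 normalized reads over the 12 libraries.

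The order of the first 3 genes, Alox5ap, Alox5 and Ptges3, was the same in all 12 libraries. Ptges3 was above Ptgs2 in 11 of 12. Ptgs2 was above Lta4h in only 7 of 12 libraries, so these neighbours did not differ beyond their spread. Lta4h was above Ptgs1 in 3 of 6 Control libraries and in 6 of 6 LOY libraries. Among LOY libraries the lowest Lta4h, 109 per 1000 exon bases, lay above the highest Ptgs1, 96.8, and among Control libraries the levels overlapped. Ptgs1 was above Pla2g4a in 9 of 12 and Pla2g4a above Ptges in 11 of 12.

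**Figure D1:**
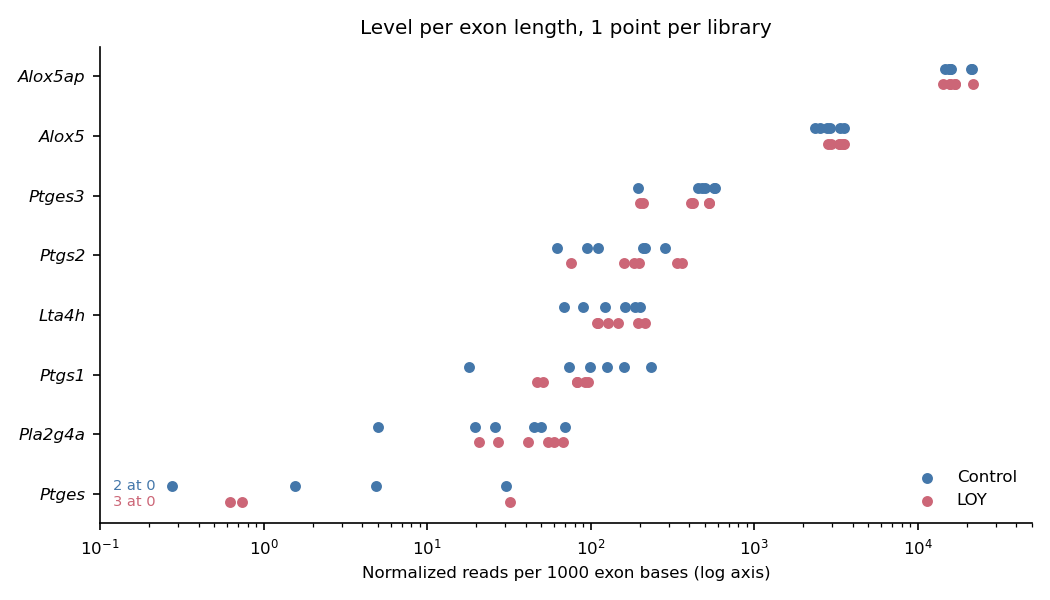
Level of each gene per exon length. The horizontal log axis gives normalized reads per 1000 exon bases, each point is 1 library, and blue and red are Control and LOY; libraries at 0 are counted at the left. Alox5ap and Alox5 lie above all other genes in every library, and Ptges is at 0 in 2 Control and 3 LOY libraries.

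The comparison of LOY with Control libraries asks whether neutrophils labelled as lacking the Y chromosome differ in these genes. Of the 7 members tested, 0 passed (limma, adjusted p under 0.05), where 0.0205% of the 9742 genes tested passed. None of the 7 had an unadjusted limma p under 0.05 either, beside 6.04% of all genes (4.4% higher and 1.63% lower in LOY). With edgeR 0 members passed at the adjusted threshold, as 0% of all genes did, and 0 at the unadjusted one, beside 2.94% of all genes. With DESeq2 0 members passed, beside 0.493% of all genes. Estimates were above 0 for 4 members and below 0 for 3, and their median log2 fold change was 0.17, beside 0.14 over all genes tested, of which 60.9% were above 0. The Control and LOY values overlapped for every listed member, and 0.287% of all genes tested had no overlap. The precision differed widely between members, from an SE of 0.11 (log2) for Alox5 to 0.60 for Pla2g4a. In bulk RNA, fewer cells that express a gene and less RNA per cell cannot be told apart.

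**Figure D2:**
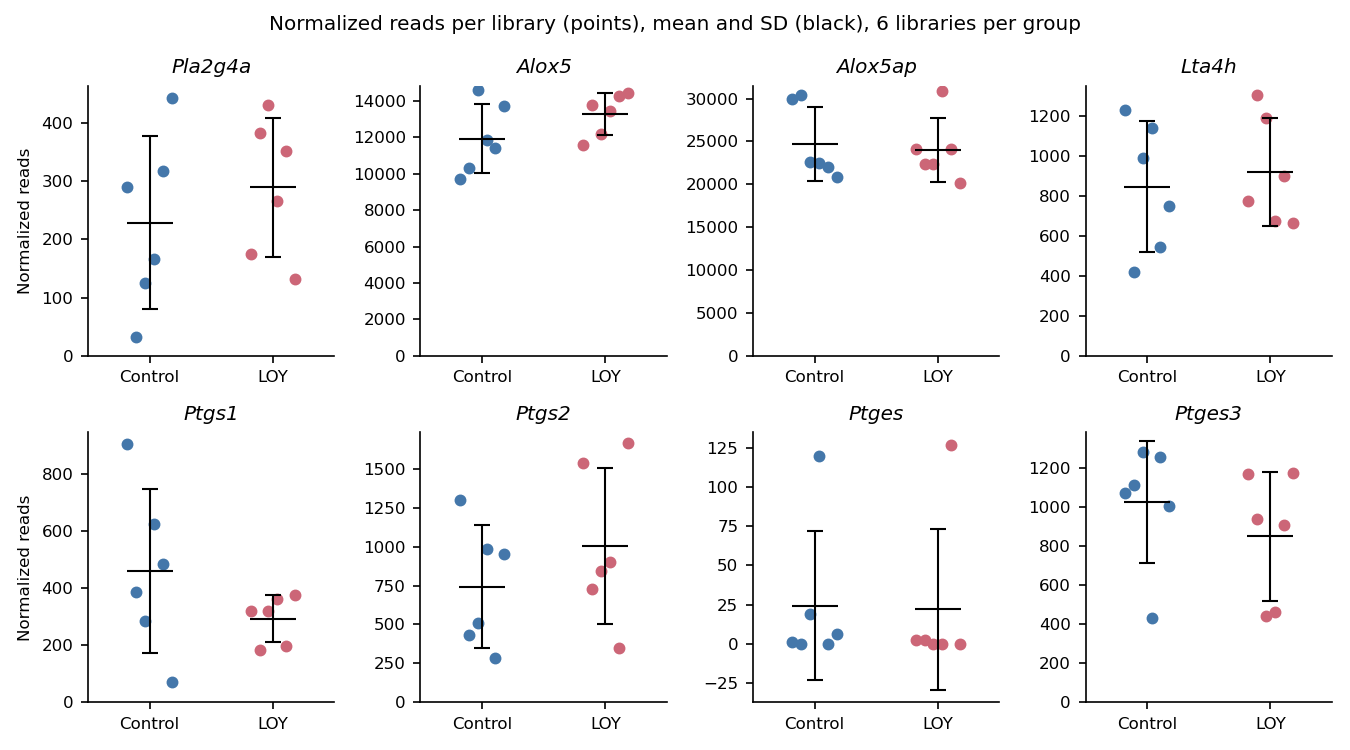
Values by library for the 8 listed genes. The vertical axes give normalized reads, points are libraries, and black bars are the mean and SD of 6 libraries. In each panel the Control and LOY points overlap, and for Ptges single libraries, Control 12 and LOY 15, hold most of the reads.

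Pla2g4a encodes cytosolic phospholipase A2, the first step (chromosome 1, 149829618 to 149961290, minus strand, GRCm38). Its level was 289, 32.0, 125, 166, 317 and 443 normalized reads in Control 1, 2, 6, 12, 17 and 18. In LOY 4, 5, 9, 10, 15 and 19 its level was 175, 382, 431, 266, 352 and 132. Control 2 was the lowest and Control 18 the highest of the 12 libraries, so the LOY values fell inside the Control range. The log2 fold change was 0.61 ± 0.60 (SE; limma adjusted p = 0.855, 95% interval −0.69 to 1.92). It was 0.13 without Control 2 and 0.03 without Control 1, 2 and 12, so the size of this estimate rested on Control 2. With edgeR it was 0.36.

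Other genes that handle arachidonic acid and its membrane stores were read in the same libraries. Of 26 genes on that list 9 were listed and tested, and 0 passed (limma; 5 estimates above 0 and 4 below, median log2 fold change 0.10). Pla2g7, which encodes the enzyme that inactivates platelet-activating factor, averaged 27448 ± 2989 normalized reads (Control) against 29418 ± 2794 (LOY), an estimate of 0.10 ± 0.09 (log2, SE). Lpcat2, which encodes an acyltransferase that makes platelet-activating factor and its precursor, stood at 10667 ± 1185 and 11804 ± 1285 (0.15 ± 0.09). Mboat7, whose product returns arachidonic acid to phosphatidylinositol, was at −0.14 ± 0.10. Without Control 2 the estimates were 0.050 for Pla2g7 and 0.091 for Lpcat2, and without Control 1, 2 and 12 they were 0.038 for Pla2g7 and −0.044 for Mboat7. Acsl4, which encodes a ligase that activates arachidonic acid, was at −1.09 ± 0.85, and at −0.25 without LOY 9, which held 5.46 normalized reads against 137 to 297 in the other LOY libraries. Without Control 1, 2 and 12 it was −0.68.

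Alox5 encodes 5-lipoxygenase, the enzyme that commits arachidonic acid to leukotrienes (chromosome 6, 116410077 to 116461178, minus strand). Its normalized reads were 9692, 10302, 14572, 11878, 11404 and 13726 in Control 1, 2, 6, 12, 17 and 18. In LOY 4, 5, 9, 10, 15 and 19 they were 11579, 13790, 12182, 13467, 14251 and 14444. The lowest values belonged to Control 1 and 2, and the highest of all 12 to Control 6. LOY over Control gave a log2 fold change of 0.17 ± 0.11 (SE; limma adjusted p = 0.826), with a 95% interval from 0.957-fold to 1.31-fold, and 0.01 without Control 1, 2 and 12. Alox5 and the share of genes at 0 had a Pearson r of −0.71 and a Spearman rho of −0.49 over the 12 libraries, with group means not subtracted. That r was the largest in size of the library measures compared with Alox5. It was 0.66 for the mast cell and basophil marker sum and 0.60 for recovered reads. The part of the share of genes at 0 in the Alox5 values was not tested.

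Alox5ap encodes FLAP, which presents arachidonic acid to 5-lipoxygenase (chromosome 5, 149264767 to 149288153, plus strand). Its normalized reads were 29908, 30458, 22589, 22511, 22047 and 20818 in Control 1, 2, 6, 12, 17 and 18. They were 24074, 22368, 22392, 30926, 24111 and 20139 in LOY 4, 5, 9, 10, 15 and 19. Control 1, Control 2 and LOY 10 stood apart at about the same high level, and the other 9 libraries lay close together. The log2 fold change was −0.04 ± 0.12 (SE; limma adjusted p = 0.956), with a 95% interval from 0.810-fold to 1.17-fold. It was above 0 without Control 1 (0.02), Control 2 (0.03) or LOY 19 (0.01), and at 0.13 without Control 1, 2 and 12 together.

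The library kit does not mark strand, and exons of the antisense gene Gm19719 overlap exons of Alox5ap, so the reads of these genes cannot be told apart where they overlap. Gm19719 was at 309 and 519 normalized reads in Control 1 and 2, at 65.7 in LOY 10, and at 6.92 to 82.0 in the other 9 libraries. Its highest value is small beside that of Alox5ap in the same library. The neutrophil marker sum was 130036 and 133888 per 1000000 in Control 1 and 2 and 116276 in LOY 10, beside 83280 to 116342 in the other 9 libraries. Its part in the Alox5ap values was not tested.

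Alox5ap and Alox5 were also compared library by library. After each group's mean was subtracted, their values had a Pearson r of −0.58 and a Spearman rho of −0.55 over 12 libraries, a description of libraries that share their depth and composition. The ratio of Alox5ap to Alox5, per exon base, was 8.92 and 8.55 in Control 1 and 2 and between 4.39 and 5.59 in the other 4 Control libraries. In LOY libraries it was between 4.03 and 6.64.

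**Figure D3:**
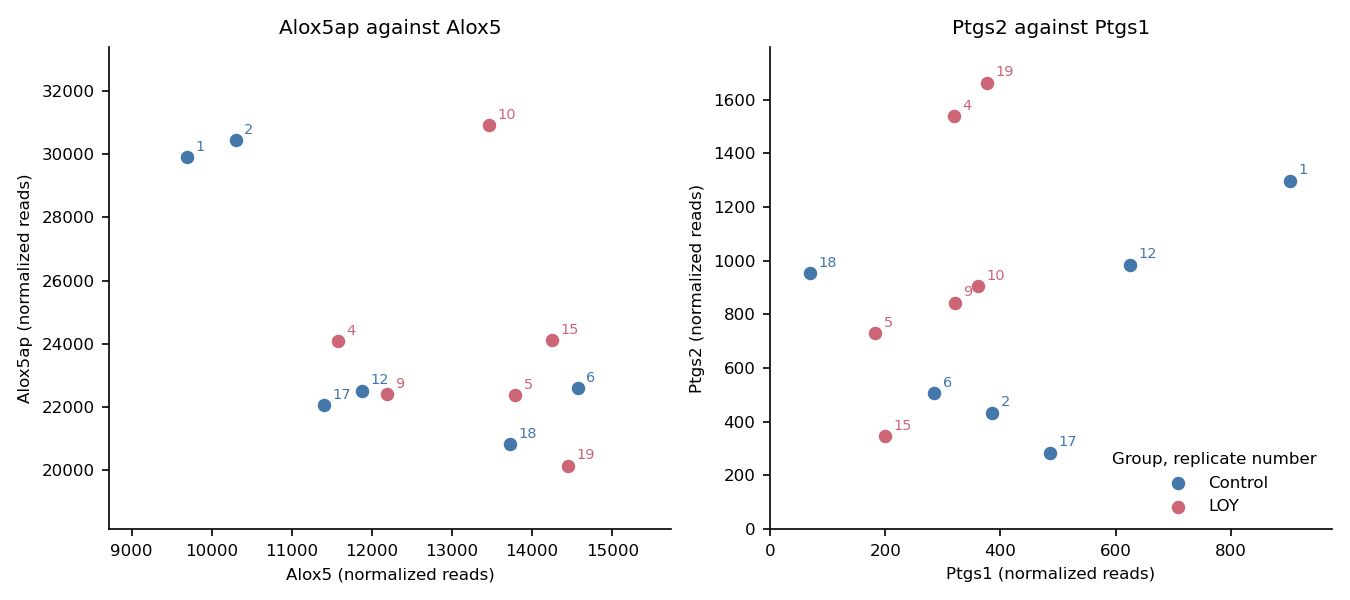
Paired genes by library, in normalized reads, with replicate numbers beside the points and axes of the left panel not starting at 0. At left, Control 1, Control 2 and LOY 10 have the highest Alox5ap, and Control 1 and 2 also the lowest Alox5; at right, Control 18 has the lowest Ptgs1 (70.0) beside 953 for Ptgs2.

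Lta4h encodes leukotriene A4 hydrolase, which makes leukotriene B4 (chromosome 10, 93453411 to 93484875, plus strand). Control 1, 2, 6, 12, 17 and 18 held 1230, 421, 988, 1137, 545 and 749 normalized reads. LOY 4, 5, 9, 10, 15 and 19 held 774, 1304, 1187, 674, 900 and 666. Control 2 and 17 were low, LOY 5 was the highest, and the groups overlapped. LOY over Control gave a log2 fold change of 0.17 ± 0.29 (SE; limma adjusted p = 0.917), −0.01 without Control 2 and 0.26 without Control 1, 2 and 12.

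The actin-binding partner of 5-lipoxygenase was abundant, and the other listed lipoxygenase gene was not. Cotl1, which encodes the actin-binding protein CLP that also binds 5-lipoxygenase, averaged 10106 ± 1659 normalized reads (Control) against 11395 ± 2937 (LOY), an estimate of 0.15 ± 0.16 (log2, SE). It was 0.037 without LOY 10 and 0.32 without Control 1, 2 and 12. Alox12, the platelet-type 12-lipoxygenase gene, was at 0 in Control 1 and 2, at 94.5 to 351 in the other Control libraries and at 51.0 to 439 in LOY libraries. Its log2 fold change of 2.00 ± 1.53 became −0.15 without Control 1, 2 and 12, and was 0.30 with edgeR. These 2 genes were the tested members of a list of 6.

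On the list of cysteinyl leukotriene genes, Mgst1 and Ggt5 had the most normalized reads, and the leukotriene C4 synthase gene had few. Any part of Mgst1 in leukotriene synthesis was not tested. Of 11 genes on this list 9 were listed, 8 were tested and 0 passed (limma; median log2 fold change 0.15). Mgst1, a microsomal glutathione transferase gene of the same protein family as FLAP, averaged 8209 ± 2303 normalized reads (Control) against 6902 ± 932 (LOY), an estimate of −0.21 ± 0.17 (log2, SE, and 0.11 without Control 1, 2 and 12). Ggt5, whose product turns leukotriene C4 into leukotriene D4, stood at 2671 ± 920 and 2853 ± 343 (0.15 ± 0.19, and 0.047 without Control 2). Ggt1, which encodes a related transferase, was at 1.19 ± 1.87, with edgeR and DESeq2 estimates of −0.03 and −0.06. Ltc4s, the leukotriene C4 synthase gene, stood at 33.3 ± 41.6 and 18.9 ± 18.9 and is named after its values were seen.

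Cyp4f18, which encodes the cytochrome P450 that oxidizes leukotriene B4 in mouse neutrophils, had the highest mean normalized reads of the genes tested from the pathway lists. It stood at 20473 ± 2175 normalized reads per 1000 exon bases in Control and 20834 ± 939 in LOY libraries, a level like that of Alox5ap on the same scale. Its log2 fold change was 0.03 ± 0.07 (SE; 95% interval from 0.918-fold to 1.14-fold), −0.03 without Control 2 and 0.01 without Control 1, 2 and 12. Of 13 breakdown genes 6 were listed, 5 were tested and 0 passed (limma; median log2 fold change 0.03). Ptgr2, a prostaglandin reductase gene, had the smallest p of the 43 pathway genes tested, with 604 ± 256 and 248 ± 189 normalized reads (−2.16 ± 1.02, limma adjusted p = 0.81). LOY 19 held 2.59 normalized reads of it, and without that library the estimate was −1.14. With edgeR and all libraries it was −1.26. Cyp4f13 was at 0.32 ± 0.60, at −0.31 without Control 2 and at −0.14 without Control 1, 2 and 12. Cyp4f17 was at 1.48 ± 1.22, at 0.78 without Control 12 and at 0.62 without Control 1, 2 and 12. With edgeR and all libraries Cyp4f17 was at 0.99.

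Ptgs1 encodes cyclooxygenase 1, the form most tissues express steadily (chromosome 2, 36230426 to 36252272, plus strand). Its level was 903, 386, 285, 625, 486 and 70.0 normalized reads in Control 1, 2, 6, 12, 17 and 18. In LOY 4, 5, 9, 10, 15 and 19 its level was 319, 183, 321, 361, 199 and 376. The Control libraries held both the 4 highest values and the lowest, and all LOY values fell inside their range. The log2 fold change was −0.34 ± 0.53 (SE; limma adjusted p = 0.905, 95% interval −1.49 to 0.80). It was −0.81 without Control 18, −0.08 without Control 1, and 0.40 without Control 1, 2 and 12, so its direction turned when those 3 libraries were left out together. With edgeR it was −0.63. Exons of Gm43621, on the opposite strand, overlap those of Ptgs1, and their reads cannot be told apart. In the authors' deposited table its log2 fold change was −0.65 (unadjusted p = 0.182), the same values that DESeq2 gave here, so it is not a separate estimate.

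Platelets carry Ptgs1, and the 8 listed platelet markers (of 10) summed to 70.5 to 120 per 1000000 in Control and 43.8 to 106 in LOY libraries. Of 6 platelet markers tested 4 had estimates above 0 and 2 below, with a median of 0.59 (log2), and 0 passed (limma). Itgb3, an integrin gene with the highest mean of them, was at −0.25 ± 0.52. Pf4, a platelet chemokine gene, averaged 414 ± 161 normalized reads (Control) against 220 ± 93.1 (LOY), an estimate of −0.91 ± 0.39 (log2, SE, limma adjusted p = 0.81). Ptgs1 and the share of genes at 0 had a Pearson r of 0.59 and a Spearman rho of 0.75, with group means not subtracted. Across the 12 libraries Ptgs1 and the platelet marker sum had a Pearson r of −0.18 and a Spearman rho of −0.38, also without that subtraction. The part of platelet RNA in the Ptgs1 values was not tested.

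Ptgs2 encodes cyclooxygenase 2, the form induced by inflammatory signals (chromosome 1, 150100031 to 150108227, plus strand). It lies 138740 bases from Pla2g4a, with no protein-coding gene wholly between them in GENCODE vM21. Its normalized reads were 1298, 434, 507, 985, 285 and 953 in Control 1, 2, 6, 12, 17 and 18. They were 1538, 729, 844, 904, 347 and 1663 in LOY 4, 5, 9, 10, 15 and 19. LOY 19 and LOY 4 were above every Control library, and LOY 15 was lower than all but Control 17. LOY over Control gave a log2 fold change of 0.45 ± 0.44 (SE; limma adjusted p = 0.856, 95% interval −0.52 to 1.41). It was 0.29 without LOY 4, which kept 39.8% of the mean Control share of Y-linked reads, and 0.27 without LOY 19, which kept 0.126%. The estimate was 0.21 without Control 17, 0.72 without LOY 15 and 0.78 without Control 1, 2 and 12.

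Ptgs2 varied more than most genes of its level. Its coefficient of variation over 12 libraries was 51.6%, higher than that of 87.3% of the 1473 genes with a mean within 1.5-fold of its own, whose median was 36.0%. Lta4h, at 32.7%, and Ptges3, at 33.9%, lay near the median of their neighbours (35.9% and 34.5%), and Alox5 at 13.2% beside 14.4%. Ptgs1, at 58.3%, had a higher coefficient than Ptgs2, beside a median of 51.3% for genes of its own level. Pla2g4a was at 51.1% beside 58.8%, and Alox5ap at 15.7% beside 14.4%. Ptgs2 and Pla2g4a, neighbours on chromosome 1, had a Pearson r of −0.02 over the 12 libraries after group means were subtracted. The ratio of Ptgs2 to Ptgs1 per exon base ranged from 1.48 to 4.09 in LOY libraries (median 2.81). In Control libraries it ranged from 0.497 to 1.51 in 5 libraries and was 11.5 in Control 18 (median of all 6, 1.28). With Control 18 kept, the mean ratio was 2.84 ± 4.28 in Control and 2.84 ± 1.04 in LOY (SD). A difference in this ratio between the groups was not tested.

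Ptges encodes the inducible prostaglandin E synthase (chromosome 2, 30889471 to 30929863, minus strand). It held 1.1, 0, 19.1, 120, 0 and 6.13 normalized reads in Control 1, 2, 6, 12, 17 and 18, and 2.89, 2.46, 0, 0, 127 and 0 in LOY 4, 5, 9, 10, 15 and 19. The 131 recovered reads in Control 12 and 142 in LOY 15 made up most of its reads, and 5 libraries were at 0, for which up to 3 reads remain possible in each from counting error alone. It fell below the filter of the test. With no filter its log2 fold change was −0.73 ± 1.5 (SE; limma adjusted p = 0.938). With DESeq2 it was −0.15 ± 2.2 (SE).

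Ptges3 encodes p23, a co-chaperone of Hsp90 that also has prostaglandin E synthase activity (chromosome 10, 128058954 to 128077272, plus strand). Its normalized reads were 1069, 1112, 1282, 432, 1256 and 1002 in Control 1, 2, 6, 12, 17 and 18, and 1171, 936, 442, 462, 906 and 1176 in LOY 4, 5, 9, 10, 15 and 19. In 3 libraries, Control 12, LOY 9 and LOY 10, it stood between 432 and 462, and in the other 9 it stood at 906 or above. The log2 fold change was −0.30 ± 0.33 (SE; limma adjusted p = 0.876), −0.13 without LOY 9, −0.53 without Control 12 and −0.57 without Control 1, 2 and 12. A processed pseudogene, Ptges3-ps, was listed as well, with 59.4 ± 25.6 normalized reads on average in Control and 42.6 ± 26.5 in LOY (SD, n = 6 each). Counting could have split reads between the copies, so the Ptges3 level is uncertain to that extent.

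**Figure D4:**
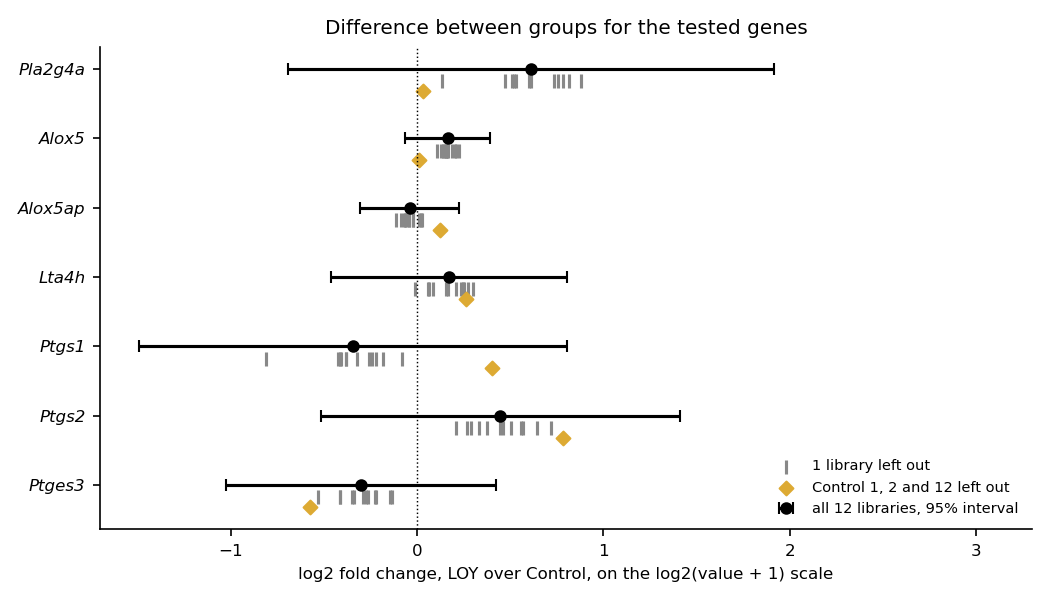
Difference between groups for the 7 tested genes. The horizontal axis is the log2 fold change of LOY over Control on the log2(value + 1) scale; black points and bars are the estimate and its 95% interval with all 12 libraries, grey ticks leave out 1 library each, and yellow diamonds leave out Control 1, 2 and 12. Every interval includes 0, and the diamond lies on the other side of 0 for Ptgs1 (0.40) and Alox5ap (0.13).

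Apart from Tbxas1, the other listed prostanoid enzyme genes had few normalized reads. Of 11 genes on this list 6 were listed and tested and 0 passed (limma; 5 estimates above 0 and 1 below). Tbxas1, the thromboxane synthase gene, had the most, with 660 ± 296 normalized reads (Control) against 781 ± 162 (LOY), an estimate of 0.36 ± 0.33 (log2, SE). It was 0.17 without Control 17 and 0.78 without Control 1, 2 and 12. The reductase gene Cbr1 stood at 49.4 ± 60.4 and 73.6 ± 31.9 (2.58 ± 1.37), and the prostamide reductase gene Fam213b at 18.8 ± 32.4 and 37.3 ± 23.5 (2.78 ± 1.38). Fam213b was at 0 in 4 Control libraries and Cbr1 in 2. Without Control 1, 2 and 12 the estimates were 1.59 for Cbr1 and 2.97 for Fam213b. With edgeR and all libraries they were 0.59 and 0.99, and with DESeq2 0.57 and 0.98. Akr1b3, an aldo-keto reductase gene, stood at 55.8 ± 44.5 and 14.4 ± 21.2 (−2.54 ± 1.44, −1.93 with edgeR and −1.95 with DESeq2). The list's median log2 fold change of 1.24 comes mostly from such low genes.

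The receptors for these lipids were measured in the same cells. Of 10 receptors for leukotrienes and other lipid mediators 5 were listed, 4 were tested and 0 passed (limma). Ltb4r1, the leukotriene B4 receptor gene, averaged 2038 ± 547 normalized reads (Control) against 2266 ± 484 (LOY), an estimate of 0.17 ± 0.19 (log2, SE). It was 0.065 without Control 2 and 0.069 without LOY 10. Ptafr, the platelet-activating factor receptor gene, stood at 3672 ± 914 and 3962 ± 742 (0.13 ± 0.18, −0.0012 without Control 1 and 0.076 without Control 1, 2 and 12). Fpr2, a formyl peptide and lipoxin receptor gene, stood at 3681 ± 951 and 2878 ± 434 (−0.33 ± 0.17, limma adjusted p = 0.81). Its highest values were in Control 1 and 2, at 5040 and 4681, and without Control 1, 2 and 12 the estimate was −0.08. Gpr18 was at 1.72 ± 1.67, at 0.94 without Control 1 or without Control 2, at 0.19 without Control 1, 2 and 12, and at 0.59 with edgeR.

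Among 9 prostanoid receptors 4 were listed, 3 were tested and 0 passed (limma). Ptger2, a receptor gene for prostaglandin E2 that raises cyclic AMP, averaged 1784 ± 595 normalized reads (Control) against 1418 ± 302 (LOY), an estimate of −0.29 ± 0.23 (log2, SE). Ptger4 was at 1.56 ± 1.48 with limma, 0.68 without Control 1, 2 and 12 and −0.42 with edgeR, and 494 normalized reads in Control 2 stood against 0 to 133 in the other Control libraries. Ptger1 was at 0.44 ± 0.43, and at −0.03 without Control 1, 2 and 12.

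Some kinases that phosphorylate phospholipase A2 or 5-lipoxygenase were tested as well, and none of those named here passed (limma). Mapkapk2 averaged 559 ± 290 normalized reads (Control) against 266 ± 154 (LOY), an estimate of −1.21 ± 0.65 (log2, SE). It was −0.70 without LOY 15 and −0.47 without Control 1, 2 and 12. Mapk3 was at −0.31 ± 0.21, Mapk14 at −0.16 ± 0.13 and Mknk1 at 0.16 ± 0.16. Without Control 1, 2 and 12 Mapk3 was at 0.04 and Mknk1 at −0.12. Over all 8 pathway lists 43 of 92 genes were tested, 0 passed and 0 had an unadjusted p under 0.05 with limma, and edgeR also gave 0 at both thresholds.

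**Figure D5:**
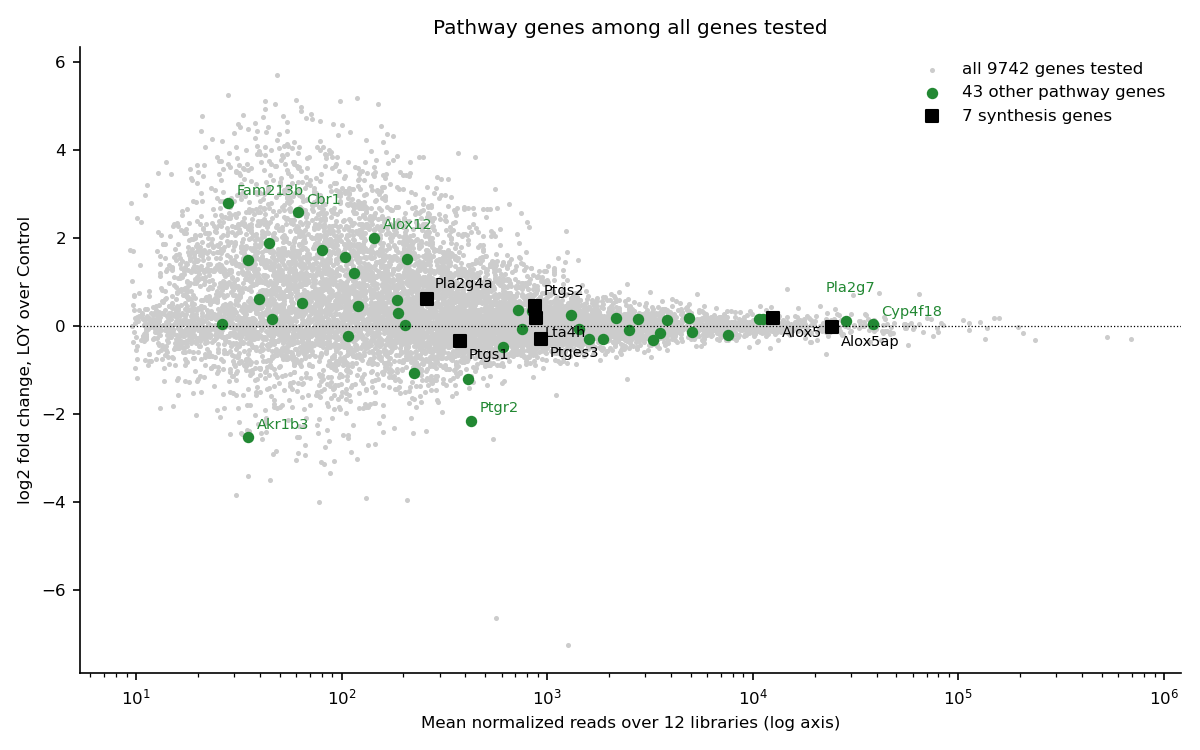
Pathway genes among all genes tested. The horizontal log axis is the mean normalized reads over 12 libraries and the vertical axis the log2 fold change of LOY over Control; grey points are all 9742 genes tested, green points the 43 other pathway genes and black squares the 7 tested synthesis genes. Abundant genes such as Cyp4f18, Pla2g7, Alox5 and Alox5ap lie close to 0, and the pathway genes farthest from 0 have low means.

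For members with a mean of 500 or more normalized reads, the genes whose values followed them most closely across the 12 libraries, after group means were subtracted, were sought among 3581 genes. For Alox5 they were Letm2 (Pearson r = 0.88), Dctn4 (0.83) and Ppp1r10 (0.82). For Alox5ap they were Pglyrp1, which encodes a peptidoglycan recognition protein of neutrophil granules (0.96), Capzb (0.91) and S100a6 (0.91). For Lta4h they were March7 (0.92), Cln3 (0.90) and Mirt2 (0.89), for Ptgs2 Utp14a (0.86), Rabgef1 (0.86) and Rab8b (0.85), and for Ptges3 Pak2 (0.93), Mff (0.92) and Arl8b (0.92). No member was among the 3 closest genes of another. These are the largest of 3581 values each, from libraries that share depth and composition, and are given as a description.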

How the data were processed

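Neutrophil RNA of 12 libraries was made into cDNA with SMART-Seq v4 and into libraries with Nextera XT, per the labels' protocols, which mark no strand. The tools in the submitters' processing notes are STAR 2.5.2b, Subread 1.5.2 with featureCounts, Trimmomatic 0.36 and bcl2fastq 2.17, with GRCm38 and mm10 as builds. In 1 table the authors deposited a signal for each gene in each library, normalized by a factor per library; the headers do not name its unit. In every library 100% of values above 0 were whole multiples of 1 step (tolerance 0.02 reads), so reads could be recovered. Listed genes had a mean of at least 8.63 normalized reads. Columns of the authors' own log2 fold changes and p-values stand beside them, per the file headers, from a tool not given in the sources used here. For the tested members the deposited log2 fold changes and unadjusted p-values equalled those that DESeq2 gave here.

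The main test was limma 3.58.1 (R 4.3.3; trended, robust empirical Bayes, no covariate) on log2(value + 1). For low genes this scale can shrink a change, and where some libraries are at 0 it can give a larger one than the count models, whose values are then given. It ran on 9742 genes with 10 or more normalized reads in at least 6 libraries, with Benjamini-Hochberg adjustment over all of them and a threshold of 0.05. Recovered reads were also tested with DESeq2 1.42.0 and with the quasi-likelihood test of edgeR 4.0.16. Further alternatives were other pseudocounts, filters and normalizations, and libraries left out. Scripts were tested on simulated counts. Exon lengths, the union of all annotated exons of a gene, and coordinates came from GENCODE vM21 (GRCm38). The members and lists were chosen with earlier results of these data known. Named were all members, up to 3 genes per pathway list by smallest p and 2 by highest mean, the 2 highest markers per cell type where a result touches them, and the 3 most similar genes per member. A gene that this rule names in the kinase list is not reported here.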

Additional observations from a re-analysis of the deposited data

Results flagged for a closer look

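Among 82 groups of 6 values that were looked at (the 8 listed members, the named pathway genes and 4 ratios, each in Control and in LOY), 13 had a library far from the other 5, by a gap to the nearest value, over the group's range, above Dixon's 95% critical value. That value is set to flag about 1 in 20 groups of normally distributed values. Low reads and ratios need not follow that distribution, so the 13 flags cannot be set against a chance rate. Among the members, Alox5ap in LOY 10 stood at 30926 normalized reads, against 20139 to 24111 in the other LOY libraries. Ptges stood at 120 in Control 12 (others 0 to 19.1) and at 127 in LOY 15 (others 0 to 2.89). Ptges3 stood at 432 in Control 12, against 1002 to 1282 in the other Control libraries.

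Among pathway genes, LOY 15 was high for Mboat7 (6041 normalized reads, others 4302 to 4878) and Alox12 (439, others 51.0 to 144). LOY 15 also had the highest erythroid marker sum, 38011 per 1000000, beside 4283 to 11134 in the other 11 libraries. Control 12 was high for Acsl4 (558, others 141 to 275) and Ggt1 (565, others 0 to 126). LOY 10 was high for Ggt1 (460, others 0.864 to 87.5) and Ltb4r1 (3213, others 1920 to 2292). Control 2 was high for Ptger4 (494, others 0 to 133). Of the ratios, Ptgs2 over Ptgs1 per exon base was 11.5 in Control 18 (others 0.497 to 1.51), and Ptges3 over Ptgs2 was 5.39 in LOY 15 (others 1.06 to 2.65).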

How the results depend on the processing

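No paired analysis was possible because the Control and LOY libraries share no replicate number. The count of members past the threshold was 0 under every alternative run, as was that of pathway genes. Of 147 alternative log2 fold changes of the 7 tested members 141 kept their direction and 6 did not, and the limma, edgeR or DESeq2 adjusted p ranged from 0.612 to 1.00. Leaving out 1 library at a time gave ranges of 0.11 to 0.23 for Alox5, −0.11 to 0.025 for Alox5ap, −0.0095 to 0.30 for Lta4h, −0.81 to −0.08 for Ptgs1, 0.21 to 0.72 for Ptgs2, −0.53 to −0.13 for Ptges3 and 0.13 to 0.88 for Pla2g4a. It also turned Cyp4f13 (−0.31 to 0.52), Cyp4f18 (−0.025 to 0.058) and Ptafr (−0.0012 to 0.21). With Control 1, 2 and 12 left out together Alox5ap was at 0.13, Ptgs1 at 0.40, Alox12 at −0.15, Mgst1 at 0.11, Cyp4f13 at −0.14, Ptger1 at −0.032, Mapk3 at 0.044 and Mknk1 at −0.12. With edgeR and DESeq2 Ggt1 was at −0.033 and −0.064, Cyp4f13 at −0.052 and −0.070, and Ptger4 at −0.42 and −0.43. The cause of these turns was not tested. Ranking similar genes by Spearman in place of Pearson shared 9 of 15 named genes. Across all genes the median log2 fold change was 0.14, 0.00062 with quantile normalization and −0.0098 with edgeR. Without Control 1, 2 and 12 the median over all genes was −0.011 (limma). The spread between libraries limits Ptges, Pla2g4a and Ptgs1: for Ptges, LOY 10 held 0 reads and LOY 15 held 142 at 18525479 and 18495056 recovered reads.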
